A study of Homo sapiens with 8 samples.

Results

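The G2 and M phase genes described here are 50 protein-coding genes whose products carry a cell out of G2, condense its chromosomes, build the spindle and divide the cell. They were listed by gene name, with earlier results of these data already known. Each had 1 row in each of the 2 tables of the series, among 56981 gene names in NCI-H1688 and 17169 in NCI-H146. Both are established human lines, labelled as small cell lung cancer and as epithelial cells of the lung. Poly(A) RNA had been sequenced from 8 libraries to ask what depletion of KLF9, a transcription factor of the Krüppel-like family, does to gene expression. There were 4 groups of 2 libraries: NCI-H1688 with a KLF9 shRNA (shKLF9, replicates 1 and 2), NCI-H1688 with a control shRNA (shcontrol, replicates 1 and 2), NCI-H146 with a KLF9 shRNA (shKLF9, replicates 1 and 2) and NCI-H146 with a control shRNA (shcontrol, replicates 2 and 3). All 4 groups, controls included, had been infected with lentivirus and kept on puromycin for 2 weeks. The genotype label was KLF9 knockdown for shKLF9 and WT for shcontrol. The labels speak of biological replicates without saying whether each came from its own infection, and the hairpin, its promoter and whether the lines were clones are not given in the sources used here. P-values therefore measure the spread between these libraries, which may be partly technical.

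Most G2 and M phase genes have transcript levels that are low in G1 and climb through S phase to a peak in G2 and mitosis. The MuvB core keeps them silent in resting cells as part of the DREAM complex and activates them in cycling cells together with B-MYB (MYBL2) and FOXM1, acting largely through the cell cycle genes homology region (CHR, TTTGAA or TTCGAA) and, for NF-Y, the CCAAT box. Their products act around CDK1 with its B-type cyclins, at the kinetochore and the spindle, and at the anaphase-promoting complex (APC/C), which ends mitosis by marking cyclin B and securin for destruction. Small cell lung cancer is known for rapid division and a high share of cells in cycle.

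Promoters of 42 of the 50 genes were found in the RefSeq table of GRCh38.p14, in 51 windows of 300 bases that run from 250 bases before the start of a gene to 50 bases after it. TTTGAA or TTCGAA, searched on both strands, lay in 70.59% of these windows, against 16.35% of all 35116 windows in the table. From 50 bases before the start to the end of the window the shares were 52.94% and 5.012%. CCAAT, also searched on both strands, lay in 66.67% of the windows of the 50 genes, against 34.61% of all windows, and both motifs lay together in 56.86% against 6.376%. Several genes had overlapping windows, so 1 site could be counted more than once. By gene, 33 of 42 held the CHR letters, 30 held CCAAT and 27 held both. The CHR letters had 51 matches, 13 of them in 12 genes starting 30 to 21 bases before the gene start, and 34 of the 81 CCAAT matches started 100 to 51 bases before it. No promoter entry was matched for ANP32E, UBE2C, AURKA, TTK, CDCA2, HMGB2, BIRC5 and TPX2. The promoters of 6 genes are shown so that the arrangement of the motifs can be compared. They were taken from the genes with both motifs, by smallest limma adjusted p in NCI-H1688. All 6 transcripts were lower there in libraries labelled shKLF9. Because motifs and p-values both entered the choice, it shows no link between them. In that line 9 of 27 genes with both motifs and 5 of 15 without both were lower. Capitals mark the CHR letters and the CCAAT boxes on either strand. The reverse complement of the CHR letters TTTGAA reads TTCAAA. That of the CCAAT box reads ATTGG. All 6 are on the plus strand and are printed 5′ to 3′: TUBB4B at chr9:137241037-137241336, CDC20 at chr1:43358731-43359030, KIF23 at chr15:69414099-69414398, CKS1B at chr1:154974431-154974730, GTSE1 at chr22:46296620-46296919 and CKS2 at chr9:89310945-89311244.
TUBB4B: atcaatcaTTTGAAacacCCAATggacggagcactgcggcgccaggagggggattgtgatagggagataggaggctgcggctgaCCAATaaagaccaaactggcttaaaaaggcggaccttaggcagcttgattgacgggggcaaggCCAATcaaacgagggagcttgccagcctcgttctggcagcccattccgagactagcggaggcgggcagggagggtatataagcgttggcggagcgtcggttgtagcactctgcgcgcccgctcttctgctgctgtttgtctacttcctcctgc
CDC20: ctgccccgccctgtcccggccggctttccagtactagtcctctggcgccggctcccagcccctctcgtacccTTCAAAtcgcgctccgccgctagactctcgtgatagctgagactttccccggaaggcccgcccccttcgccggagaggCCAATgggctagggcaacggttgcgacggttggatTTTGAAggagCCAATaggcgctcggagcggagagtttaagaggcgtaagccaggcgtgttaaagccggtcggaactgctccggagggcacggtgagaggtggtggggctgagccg
KIF23: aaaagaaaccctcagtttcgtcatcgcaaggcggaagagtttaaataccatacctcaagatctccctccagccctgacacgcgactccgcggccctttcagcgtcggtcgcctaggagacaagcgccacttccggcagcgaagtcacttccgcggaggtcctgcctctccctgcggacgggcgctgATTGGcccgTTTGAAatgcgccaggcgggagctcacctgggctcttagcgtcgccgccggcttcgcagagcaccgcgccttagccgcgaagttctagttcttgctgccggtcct
CKS1B: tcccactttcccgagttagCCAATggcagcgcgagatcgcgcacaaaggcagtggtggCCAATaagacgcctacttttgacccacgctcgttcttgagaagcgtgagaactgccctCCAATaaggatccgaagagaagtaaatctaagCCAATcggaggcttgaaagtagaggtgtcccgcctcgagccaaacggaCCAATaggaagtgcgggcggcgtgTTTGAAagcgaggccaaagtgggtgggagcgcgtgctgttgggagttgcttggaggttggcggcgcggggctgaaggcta
GTSE1: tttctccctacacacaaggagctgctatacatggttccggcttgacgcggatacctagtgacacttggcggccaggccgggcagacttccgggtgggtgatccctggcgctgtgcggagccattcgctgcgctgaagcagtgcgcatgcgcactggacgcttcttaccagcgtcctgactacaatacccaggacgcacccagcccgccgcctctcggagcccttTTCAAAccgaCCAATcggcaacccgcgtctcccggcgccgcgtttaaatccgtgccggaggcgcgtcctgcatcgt
CKS2: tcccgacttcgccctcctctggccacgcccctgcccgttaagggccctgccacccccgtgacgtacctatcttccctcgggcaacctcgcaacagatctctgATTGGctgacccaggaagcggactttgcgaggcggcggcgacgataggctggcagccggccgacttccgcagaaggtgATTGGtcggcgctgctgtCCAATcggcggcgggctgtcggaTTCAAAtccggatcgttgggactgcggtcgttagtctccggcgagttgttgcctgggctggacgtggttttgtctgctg
In CKS1B, CKS2 and GTSE1 the CHR letters started 30, 29 and 26 bases before the gene start. In KIF23 they started 55 bases before it, close to a CCAAT box on the other strand. CDC20 had 2 matches, 178 and 65 bases before the start, and the match in TUBB4B lay 242 bases before it. CKS1B carried 5 CCAAT boxes in its window, more than the other 5 genes shown. A match is a run of letters in the sequence and was not measured as a bound site.

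**Figure D1:**
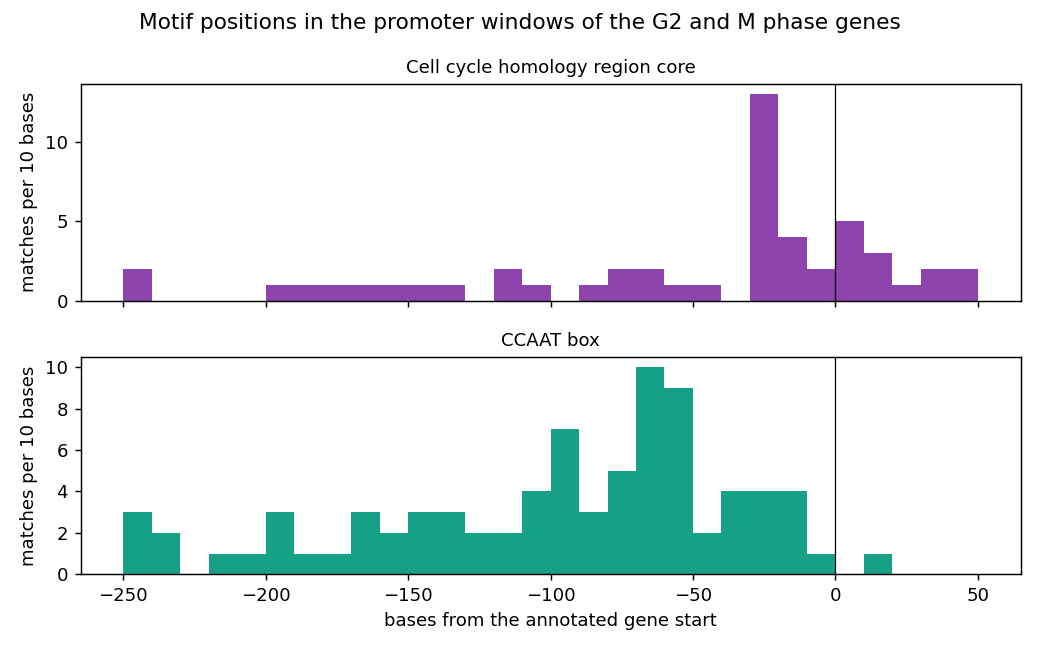
Position of each motif match in the matched promoter windows, as bases from the gene start (x axis) against the number of matches (y axis), for the CHR letters and for CCAAT. Of 51 CHR matches, 13 started 30 to 21 bases before the gene start, and 34 of 81 CCAAT matches started 100 to 51 bases before it.

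Before the genes are described, the libraries and labels were checked. The NCI-H146 libraries held 15406264 to 16109803 counts, and those of NCI-H1688, tabulated as TPM (transcript abundance scaled by length and library total), had 22812 to 23529 gene names above 0. Mitochondrially encoded genes took 8.56% of the counts in NCI-H146 shKLF9 replicate 1, against 0.897% in shKLF9 replicate 2 and 0.907% and 1.20% in the shcontrol libraries. In NCI-H1688 the shares were 17.7% and 16.3% in libraries labelled shKLF9 and 15.0% and 14.3% in shcontrol. KLF9 itself (chr9:70384597-70414624, GRCh38, minus strand) stood at 24.95 and 32.3 CPM (counts scaled by library total) in NCI-H146 shKLF9, against 66.9 and 61.7 CPM in shcontrol, and fell by 1.17 on the log2 scale (SE 0.283, edgeR adjusted p = 0.0131). In NCI-H1688 it went against the label, at 1.95 and 1.60 TPM in the libraries labelled shKLF9 and 0.298 and 0.644 TPM in shcontrol (log2 fold change 0.92, limma adjusted p = 0.0952). Every direction given for NCI-H1688 below rests on those labels.

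The labelled cell type was set against its markers. In NCI-H1688, 0 of 10 neuroendocrine markers averaged 1 TPM or more, and CALCA, DDC, GRP, INSM1 and NEUROD1 were at 0 in all 4 libraries. Their summed level was 1.75 and 1.47 TPM in libraries labelled shKLF9 and 2.28 and 1.28 TPM in shcontrol. All 6 epithelial markers and 4 of 5 squamous or basal markers passed 1 TPM there. The epithelial sum was 2146 and 2215 TPM in libraries labelled shKLF9, against 3148 and 3294 TPM in shcontrol. In it KRT8 averaged 643 against 1215 TPM and KRT18 614 against 1072 TPM. CDH1 went the other way, at 81.3 against 58.95 TPM, and EPCAM, KRT19 and KRT7 were not called. In NCI-H146, 6 of 10 neuroendocrine markers had a row and 3 averaged at least 1 CPM, with sums of 24.1 and 24.5 CPM in shKLF9 and 7.81 and 10.0 CPM in shcontrol. Epithelial markers (4 of 6 with a row) summed to 266 and 307 CPM in shKLF9 and to 292 and 197 CPM in shcontrol, and leukocyte markers (3 of 6 averaging at least 1 CPM) to 15.3 and 14.7 CPM in shKLF9 and 21.1 and 19.8 CPM in shcontrol. Defining neuroendocrine markers, which most small cell lung cancers carry, were thus few or absent in both lines. Tuft markers (3 of 4 with a row, 1 averaging at least 1 CPM) summed to 29.8 and 27.9 CPM in NCI-H146 shKLF9 and 8.68 and 8.89 CPM in shcontrol. Most of this was ASCL2, which averaged 28.25 CPM in shKLF9 and 8.47 CPM in shcontrol. Fibroblast markers (5 of 6 with a row, 3 averaging at least 1 CPM) summed to 58.4 and 72.2 CPM in shKLF9 and 132.6 and 81.9 CPM in shcontrol. COL1A1 averaged 26.2 CPM in shKLF9 and 76.6 CPM in shcontrol. COL3A1, at 35.2 against 27.0 CPM, and PDGFRB, at 3.91 against 3.46 CPM, went the other way and were not called. The part of these marker differences in the results on the 50 genes was not tested.

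All 50 genes were measurable in both lines. The lowest count of any of them in an NCI-H146 library was 85, for CDC25C, the phosphatase that activates CDK1. Compared per length in the controls, TUBB4B, a beta-tubulin, was the highest of the 50 in both lines, at 462 TPM in NCI-H1688, and UBE2C, an ubiquitin-conjugating enzyme of the APC/C, ranked 4 in NCI-H1688 and 2 in NCI-H146. CDCA2, which recruits a phosphatase that opposes the mitotic kinases, was the lowest in NCI-H1688 at 6.47 TPM. Over the 50 genes, the order of control levels was similar in the lines (Spearman rho 0.798, TPM against CPM per kilobase; both scales share gene length, and no p is given). By annotation, the spans of 28 of the 50 genes, introns included, overlap another gene on either strand. Without a record of strand, reads from shared exon sequence cannot be told apart from those of the neighbour. The extent of such sequence was not measured. TUBB4B, CKS1B, CKS2 and HMGB2 also have near-identical copies elsewhere in the genome, between which reads can be split.

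In NCI-H1688, G2 and M phase transcripts were lower in libraries labelled shKLF9 than in shcontrol, by modest amounts. At an adjusted p under 0.05 in limma, fitted across 14754 genes, 17 of the 50 genes (34%) were lower and 0 were higher, while 9.67% of all genes tested were called lower and 6.36% higher. At an unadjusted p under 0.05 in limma, 29 of the 50 were lower and 0 higher, against 2911 and 2101 of all 14754 genes tested. The median log2 fold change was -0.28 over the 50 genes and -0.02 over all genes tested, and 44 of 50 were below 0, against 52.5% of all genes. Both libraries labelled shKLF9 were below both shcontrol libraries for 37 of the 50, a pattern that 33.8% of all genes tested showed, and above both for 2, against 28.9%. With mitochondrially encoded genes left out of the totals, 14 of the 50 were lower and 0 higher, and 7.52% of all genes were lower and 7.67% higher. In bulk RNA, fewer cells in G2 and mitosis and less RNA per such cell cannot be told apart. The calls needed all 4 libraries and did not hold with any 1 left out. The median log2 fold change of the 50 genes then ran between -0.29 and -0.21. Of all genes, 0.0% passed without either library labelled shKLF9, and 0.162% and 0.115% passed without shcontrol replicate 1 and 2. Without the intensity trend in limma 4 of the 50 passed, against 5.65% of all genes in either direction. All 4 were lower, and of all genes 2.35% were lower and 3.31% higher at that setting.

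**Figure D2:**
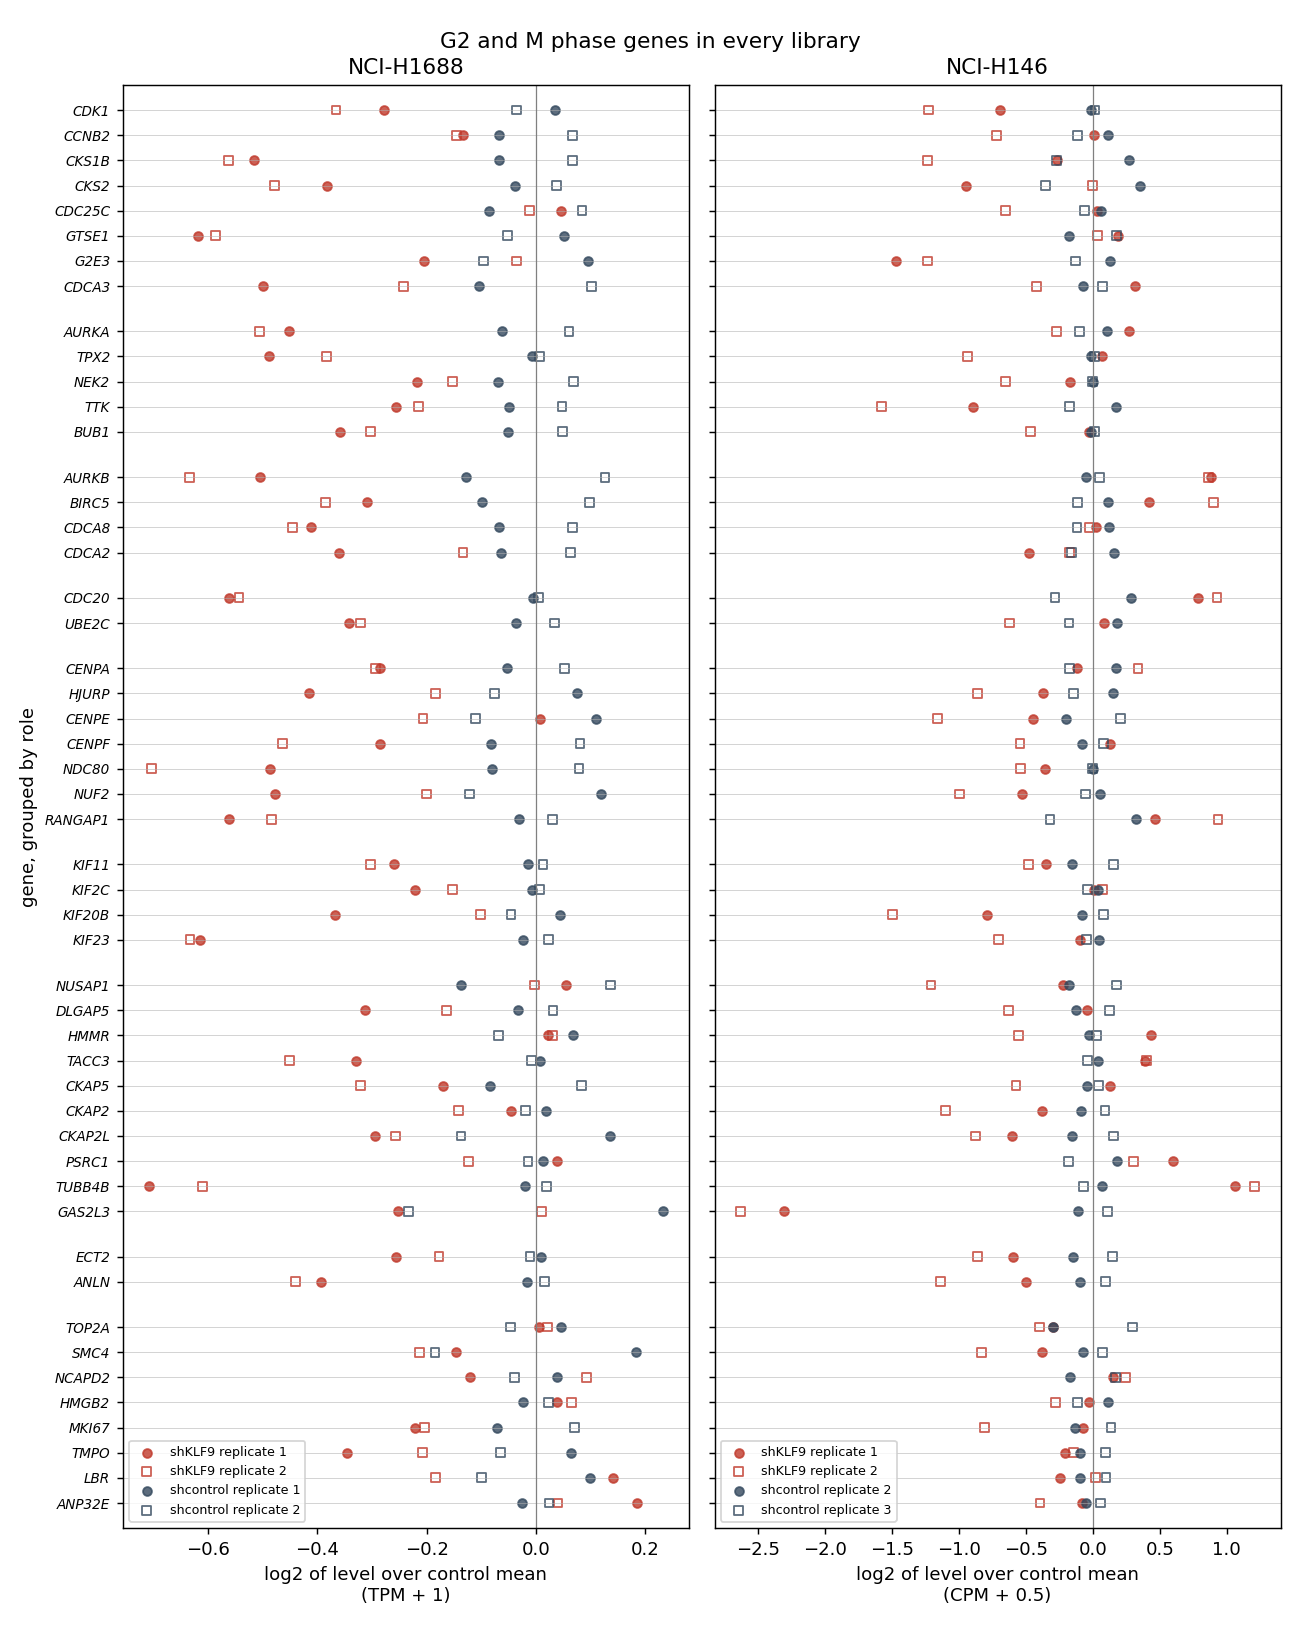
Level of each of the 50 genes (y axis, grouped by role) in each library, as the log2 ratio to the shcontrol mean of its line (x axis; TPM + 1 or CPM + 0.5). Red marks are shKLF9 and dark marks shcontrol libraries, filled and open for the 2 replicates. In NCI-H1688, 37 genes have both red marks left of both dark ones, and in NCI-H146 22 genes do and 7 have both to the right.

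Among CDK1, its partners and the genes of entry into mitosis, 4 of 8 were lower in NCI-H1688, against 9.67% of all genes tested. The roles hold few genes each, and differences between them were not tested. CDK1 (chr10:60778331-60794852), the kinase that drives mitosis, stood at 72.2 and 67.9 TPM in libraries labelled shKLF9 and at 89.9 and 85.6 TPM in shcontrol. It fell by 0.32 on the log2 scale (SE 0.0633, limma adjusted p = 0.0386), and the groups did not overlap. CKS1B, a small CDK-binding subunit, was at 185 and 179 TPM in libraries labelled shKLF9 against 253 and 278 TPM in shcontrol, and fell by 0.54 (adjusted p = 0.0156 by limma). Its paralog CKS2 was at 159 and 149 TPM against 202 and 214 TPM in shcontrol, and fell by 0.43 (adjusted p = 0.0205 by limma). GTSE1, a microtubule-binding protein that holds back p53 in G2, was at 12.7 and 12.97 TPM against 20.7 and 19.2 TPM in shcontrol, and fell by 0.60 (adjusted p = 0.0189 by limma). These 4 genes were below their controls without overlap, as were 33.8% of all genes tested. The calls and this pattern come from the same libraries. CCNB2, the cyclin B2 gene, was not called, at 62.6 and 62.1 TPM in libraries labelled shKLF9 and 65.5 and 72.1 TPM in shcontrol (log2 fold change -0.14, limma adjusted p = 0.239). The uncalled CDCA3, CDC25C and G2E3 had log2 fold changes of -0.37, 0.02 and -0.12.

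Of the mitotic kinases and their activators, 3 of 5 were lower, against 9.67% of all genes tested. All 5 were below control without overlap, as were 33.8% of all genes tested. AURKA, the centrosomal Aurora kinase, stood at 78.2 and 75.3 TPM in libraries labelled shKLF9 and 102.9 and 112 TPM in shcontrol, and fell by 0.48 (limma adjusted p = 0.0196). TPX2, which activates AURKA on the spindle, was at 57.8 and 62.3 TPM against 81.2 and 82.0 TPM in shcontrol, and fell by 0.44 (limma adjusted p = 0.0208). BUB1, a spindle checkpoint kinase, was the called gene nearest to the threshold, at 29.7 and 30.9 TPM against 37.1 and 39.8 TPM in shcontrol (log2 fold change -0.33, limma adjusted p = 0.0458). TTK and NEK2, kinases of the checkpoint and the centrosome, had log2 fold changes of -0.24 and -0.19 and were not called.

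The chromosomal passengers correct kinetochore attachments and guide cleavage. Together with their antagonist CDCA2 they had 2 of 4 genes lower, against 9.67% of all genes tested. AURKB (chr17:8204733-8210600, minus strand), the kinase of the passenger complex, stood at 52.4 and 47.9 TPM in libraries labelled shKLF9 and 68.4 and 81.9 TPM in shcontrol, and fell by 0.57 (SE 0.108, limma adjusted p = 0.0360). CDCA8, which encodes the passenger borealin, was at 19.0 and 18.5 TPM against 24.4 and 26.9 TPM in shcontrol, and fell by 0.43 (limma adjusted p = 0.0360). BIRC5, which encodes survivin, was the gene just outside the threshold, at 49.2 and 46.7 TPM against 57.1 and 65.6 TPM in shcontrol (log2 fold change -0.35, limma adjusted p = 0.0667). It lay below its controls without overlap. Both partners of the APC/C were lower. CDC20, its mitotic activator, stood at 100.04 and 101 TPM in libraries labelled shKLF9 and 147.7 and 149 TPM in shcontrol, and fell by 0.55 (limma adjusted p = 0.00933). UBE2C was at 157 and 159 TPM against 194 and 204 TPM in shcontrol, and fell by 0.33 (limma adjusted p = 0.0248). All 4 called genes lay below their controls without overlap, as did 33.8% of all genes tested, in the same libraries that gave the calls.

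At the centromere and kinetochore, 2 of 7 genes were lower, against 9.67% of all genes tested. NDC80, part of the complex that holds microtubules, stood at 17.6 and 15.0 TPM in libraries labelled shKLF9 and 23.7 and 26.6 TPM in shcontrol, and fell by 0.60 (limma adjusted p = 0.0357). RANGAP1, the activator of the Ran GTPase, which is found at kinetochores in mitosis, was at 91.0 and 96.1 TPM against 132 and 138 TPM in shcontrol, and fell by 0.52 (limma adjusted p = 0.0135). CENPF, a large kinetochore protein, was not called, at 34.8 and 30.6 TPM against 40.2 and 45.2 TPM in shcontrol (log2 fold change -0.37, limma adjusted p = 0.0724). The other 4, NUF2, HJURP, CENPE and CENPA, had log2 fold changes between -0.34 and -0.10. Of the kinesins 1 of 4 was lower. KIF23, the motor of the central spindle, stood at 25.8 and 25.5 TPM in libraries labelled shKLF9 and 39.4 and 40.7 TPM in shcontrol, and fell by 0.62 (limma adjusted p = 0.0111). The other 3 kinesins had folds of -0.28 to -0.19 on the log2 scale.

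Among the spindle microtubule genes 2 of 10 were lower, against 9.67% of all genes tested. TUBB4B (chr9:137241213-137243707) stood at 282 and 302 TPM in libraries labelled shKLF9 and 455 and 468 TPM in shcontrol, and fell by 0.66 (SE 0.0569, limma adjusted p = 0.00933), the furthest of the 50. TACC3, a microtubule stabilizer at the spindle, was at 49.1 and 45.1 TPM against 62.3 and 61.6 TPM in shcontrol, and fell by 0.39 (limma adjusted p = 0.0297). The other 8 spindle genes were not called, and GAS2L3, a microtubule and actin crosslinker, overlapped between groups at 6.46 and 7.95 TPM against 9.44 and 6.55 TPM in shcontrol. Of the 2 cytokinesis genes, ANLN, an actin-binding scaffold of the cleavage furrow, was lower at 75.7 and 73.3 TPM against 98.7 and 100.8 TPM in shcontrol, and fell by 0.42 (limma adjusted p = 0.0170), and ECT2 had a fold of -0.22. Genes of chromosome structure and the nuclear envelope had 0 of 8 called and a median log2 fold change of -0.02. At an unadjusted p under 0.05 in limma, 2 of the 8 were lower and 0 higher, against 2911 and 2101 of all 14754 genes. MKI67, which coats mitotic chromosomes and is read as a marker of cycling cells, stood at 33.7 and 34.1 TPM in libraries labelled shKLF9 and 37.5 and 41.4 TPM in shcontrol (log2 fold change -0.21, limma adjusted p = 0.131). TOP2A, which untangles chromosomes, was at 77.8 and 78.7 TPM against 80.0 and 75.01 TPM in shcontrol (log2 fold change 0.01, limma adjusted p = 0.893), and its groups overlapped.

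In NCI-H146, where KLF9 was lower in the libraries labelled for its knockdown, a few of the 50 genes were called and in both directions. In edgeR, fitted across 13129 genes, 5 of the 50 (10%) were lower and 2 (4%) were higher, near the 9.12% and 8.01% of all genes that were called. The median log2 fold change was -0.32 over the 50 genes and 0.01 over all genes tested, and 37 of 50 were below 0, against 49.7% of all genes. Both shKLF9 libraries were below both shcontrol libraries for 22 of the 50, against 31.7% of all genes, and above both for 7, against 30.8%. The shKLF9 libraries differed from each other: over the 50 genes, the median log2 ratio to the control mean was -0.09 in shKLF9 replicate 1 and -0.55 in shKLF9 replicate 2, against -0.01 and 0.01 in the shcontrol libraries. Replicate 2 was below replicate 1 of shKLF9 for 37 of 50 genes, against 47.89% of all genes tested. Replicate 1 was the library with the high mitochondrial share, whose part in this was not tested beyond leaving those transcripts out, after which the same 7 genes passed. Without shKLF9 replicate 1, 19 of the 50 were lower and 5 higher, against 18.0% and 19.1% of all genes. Without shKLF9 replicate 2, 5 were lower and 3 higher, against 11.2% and 8.57%. Without shcontrol replicate 2, 1 was lower and 0 higher, against 0.31% and 0.0664%, and without shcontrol replicate 3, 2 were lower and 0 higher, against 2.6% and 1.38%. Across the fits with 1 library left out, the median log2 fold change of the 50 genes ran between -0.55 and -0.09.

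**Figure D3:**
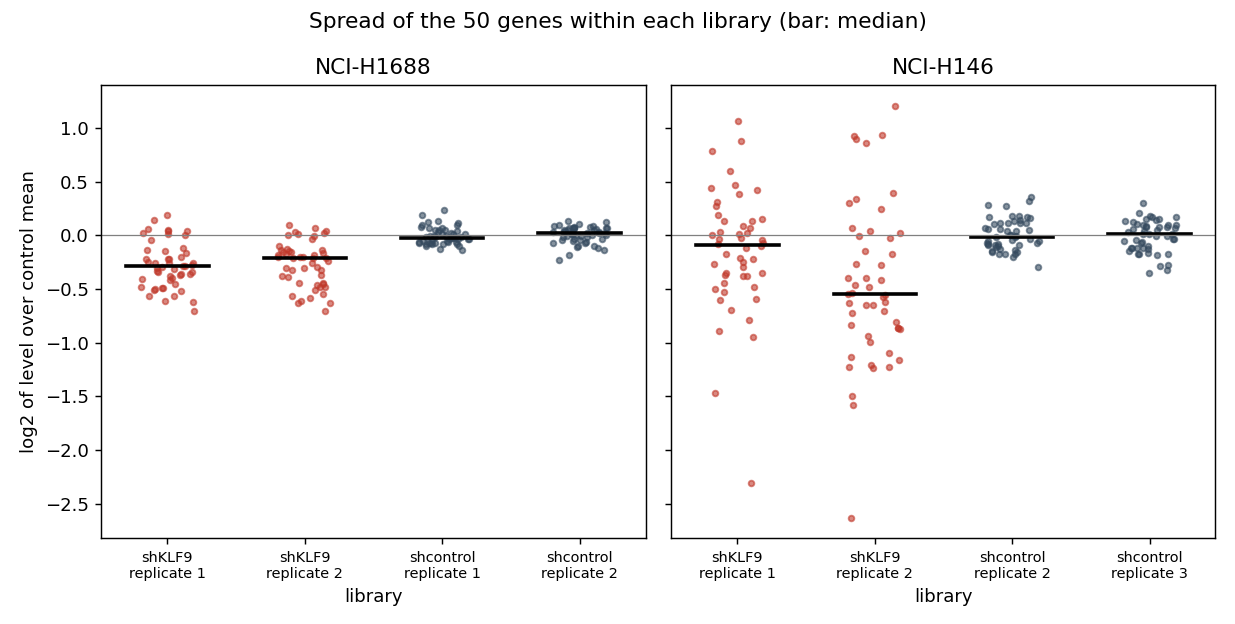
Log2 of each gene's level over its control mean (y axis) in each library (x axis), shKLF9 to the left of shcontrol in each line. Bars are medians over the 50 genes. They stand at -0.29 and -0.21 in NCI-H1688 libraries labelled shKLF9, and at -0.09 and -0.55 in NCI-H146 shKLF9, where replicate 2 is lower.

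Of the genes that were lower in NCI-H146, GAS2L3 (chr12:100573683-100628286) moved furthest. It stood at 17.96 and 14.2 CPM in shKLF9 and 84.1 and 97.9 CPM in shcontrol, and fell by 2.5035 on the log2 scale (SE 0.293, edgeR adjusted p = 0.000371). Of the 7 called genes, it alone kept its call whichever library was left out. G2E3, a ubiquitin ligase whose transcript is high in G2, was at 19.2 and 22.7 CPM in shKLF9 and 59.2 and 49.3 CPM in shcontrol, and fell by 1.38 (edgeR adjusted p = 0.00726). TTK, the kinase that starts the spindle checkpoint, was at 34.2 and 21.0 CPM against 72.2 and 56.6 CPM in shcontrol, and fell by 1.23 (edgeR adjusted p = 0.0152). KIF20B, a kinesin of late mitosis, was at 12.1 and 7.24 CPM against 20.1 and 22.5 CPM in shcontrol, and fell by 1.14 (edgeR adjusted p = 0.0295). CDK1 was at 108 and 74.5 CPM against 173 and 177 CPM in shcontrol, and fell by 0.94 (edgeR adjusted p = 0.0339). In all 5, both shKLF9 libraries lay below both shcontrol libraries, as in 31.7% of all genes tested. That pattern is not independent of the calls, which come from the same libraries. In each but G2E3, replicate 2 was the lower shKLF9 library.

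The 2 genes higher in NCI-H146 were TUBB4B and AURKB. TUBB4B stood at 1332 and 1474 CPM in shKLF9 and 669 and 607 CPM in shcontrol, and rose by 1.13 (SE 0.347, edgeR adjusted p = 0.0359). AURKB was at 81.8 and 80.9 CPM in shKLF9 and 42.7 and 45.8 CPM in shcontrol, and rose by 0.87 (SE 0.271, edgeR adjusted p = 0.0376), and was the called gene nearest to the threshold. The gene just outside was CDC20, at 86.2 and 94.9 CPM in shKLF9 and 60.6 and 40.8 CPM in shcontrol (log2 fold change 0.83, edgeR adjusted p = 0.0552). BIRC5 was at 180 and 251 CPM in shKLF9 and 145.75 and 124 CPM in shcontrol (0.67, adjusted p = 0.111 in edgeR). CDC20, BIRC5, RANGAP1 (0.68), PSRC1 (0.45) and TACC3 (0.39) were also above control without overlap, as were 30.8% of all genes tested, but were not called.

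The other genes of special interest did not pass in NCI-H146. MKI67 was at 217 and 130.3 CPM in shKLF9 and 209 and 252 CPM in shcontrol (log2 fold change -0.41, edgeR adjusted p = 0.366), with replicate 2 low and replicate 1 among the controls. CENPF, at 171 and 107 CPM against 148 and 165 CPM in shcontrol, and CCNB2, at 106 and 63.9 CPM against 115 and 97.5 CPM in shcontrol, also had replicate 2 below all other libraries. AURKA was at 71.1 and 48.6 CPM in shKLF9 and 63.1 and 54.7 CPM in shcontrol (log2 fold change 0.02, edgeR adjusted p = 0.970). UBE2C was at 289 and 177 CPM against 308 and 241 CPM in shcontrol, and TOP2A at 197 and 183 CPM against 197 and 297 CPM in shcontrol. All 6 of these genes had groups that overlapped.

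The responses of the lines were set side by side. Of the 17 genes called in NCI-H1688 and the 7 called in NCI-H146, 3 were called in both, 17.6% of the NCI-H1688 list and 42.9% of the NCI-H146 list. That is 6% of the 50 genes, against 3.72% of 10773 genes tested in both lines. CDK1 was lower in both, and AURKB and TUBB4B were lower in NCI-H1688 and higher in NCI-H146. Without a filter on low values, CDK1 and AURKB missed the threshold in NCI-H1688 (limma adjusted p = 0.0755 and 0.0919) and in NCI-H146 (edgeR adjusted p = 0.0529 and 0.0532). In NCI-H1688 both also missed it without the limma trend, at 0.102 and 0.0830, and CDK1 with mitochondrially encoded genes left out, at 0.0918. TUBB4B kept its call in both lines under these settings. By fold alone, 32 of the 50 were lower in both lines, against 24.64% of 10773 genes tested in both, 12 were lower in NCI-H1688 and higher in NCI-H146, against 31.4%, 5 were higher in NCI-H1688 and lower in NCI-H146, against 25.1%, and 1 was higher in both, against 18.9%. These counts take the NCI-H1688 labels as given, although KLF9 went against them. With the NCI-H1688 direction turned, 5 would be lower in both and 12 higher in both. The fold changes of the lines had a Spearman rho of -0.238 over the 50 genes, given without a p because genes share libraries. Both comparisons were fitted and scaled apart, so the difference between the lines was not tested.

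**Figure D4:**
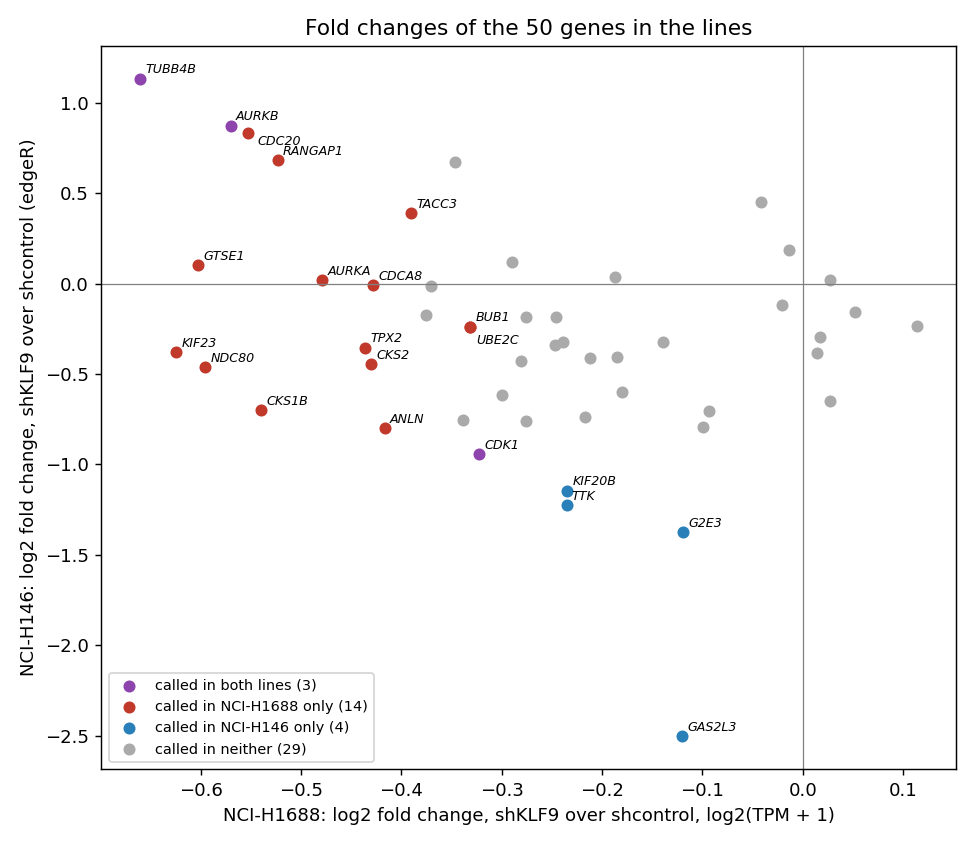
Log2 fold change of each of the 50 genes in NCI-H1688 (x axis) and NCI-H146 (y axis), shKLF9 over shcontrol, with called genes marked by the line that called them. CDK1 lies below 0 on both axes, and AURKB and TUBB4B lie at -0.57 and -0.66 in NCI-H1688 and at 0.87 and 1.13 in NCI-H146.

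Genes outside the 50 were read from 7 lists of 182 genes in all, written with earlier results of these data known. In NCI-H1688 these lists were read beside the 9.67% of all genes that were lower and the 6.36% that were higher. Lower were 15 of 36 kinetochore and checkpoint genes, 10 of 26 kinesin and spindle genes and 7 of 17 mitotic entry genes. So were 5 of 16 genes of the APC/C list, 4 of 17 condensin, cohesin and separase genes and 23 of 50 S phase genes. Each list had 0 higher genes, apart from 1 among the mitotic entry genes. The APC/C list, labelled as core subunits, also holds UBE2S, a ubiquitin-conjugating enzyme, which was among its lower genes. The regulators had 2 of 19 lower, a share of 10.5% that is near that of all genes. CENPM, a centromere protein, stood at 17.8 and 15.7 TPM in libraries labelled shKLF9 and 35.2 and 33.7 TPM in shcontrol, and fell by 1.00 (limma adjusted p = 0.00951). RRM2, which makes deoxynucleotides, was at 88.2 and 87.6 TPM against 149 and 155 TPM in shcontrol, and fell by 0.78 (limma adjusted p = 0.00607), and the tubulin TUBA1B fell by 0.83 (limma adjusted p = 0.00571). S phase genes had a median log2 fold change of -0.41, lower than the -0.28 of the 50 G2 and M phase genes.

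Cyclins, PLK1 and the regulators of the programme were read in NCI-H1688 whatever their values. CCNB1, cyclin B1, stood at 144 and 135 TPM in libraries labelled shKLF9 and 179 and 189.9 TPM in shcontrol, and fell by 0.40 (limma adjusted p = 0.0232). CCNA2, cyclin A2, fell by 0.36 (limma adjusted p = 0.0339), and PLK1, the Polo-like kinase, by 0.34 (limma adjusted p = 0.0304). FOXM1 was not called at 39.1 and 41.3 TPM against 49.7 and 46.9 TPM in shcontrol (log2 fold change -0.26, limma adjusted p = 0.0705), nor were MYBL2 (-0.15) and CDKN1A, the inhibitor p21 (-0.09). Each of these 6 genes lay below its controls without overlap, as did 33.8% of all genes tested.

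In NCI-H146 the same lists had 15 genes higher and 4 lower, read beside 8.01% of all genes higher and 9.12% lower. S phase genes had 9 of 50 higher and 0 lower in edgeR. At an unadjusted p under 0.05 in edgeR, 20 were higher and 1 lower, against 2207 and 2204 of all 13129 genes tested. Their median log2 fold change was 0.52, and the library medians were 0.60 in shKLF9 replicate 1 and 0.37 in replicate 2. UHRF1, a DNA methylation maintenance factor, was at 101 and 153 CPM in shKLF9 and 43.3 and 52.5 CPM in shcontrol, and rose by 1.40 (edgeR adjusted p = 0.00726). The APC/C list, which includes UBE2S, had 4 of 16 genes higher. ANAPC11, the catalytic RING subunit of the APC/C, stood at 26.9 and 119.8 CPM in shKLF9 and 24.965 and 18.1 CPM in shcontrol. Its shKLF9 replicate 2 thus stood far above the other 3 libraries. CENPM was at 12.8 and 30.2 CPM in shKLF9 and 6.39 and 6.53 CPM in shcontrol, and rose by 1.73 (edgeR adjusted p = 0.00942), the opposite direction to NCI-H1688, a difference that was not tested. LIN54, the DNA-binding subunit of MuvB, was at 23.998 and 21.5 CPM in shKLF9 and 47.0 and 61.8 CPM in shcontrol, and fell by 1.26 (edgeR adjusted p = 0.0110). FOXM1 was at 387 and 284 CPM in shKLF9 and 529 and 584 CPM in shcontrol (log2 fold change -0.73, edgeR adjusted p = 0.111). CCNB1 (0.42), PLK1 (0.46), CCNA2 (-0.34), MYBL2 (-0.13) and CDKN1A (-0.30) were not called.

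**Figure D5:**
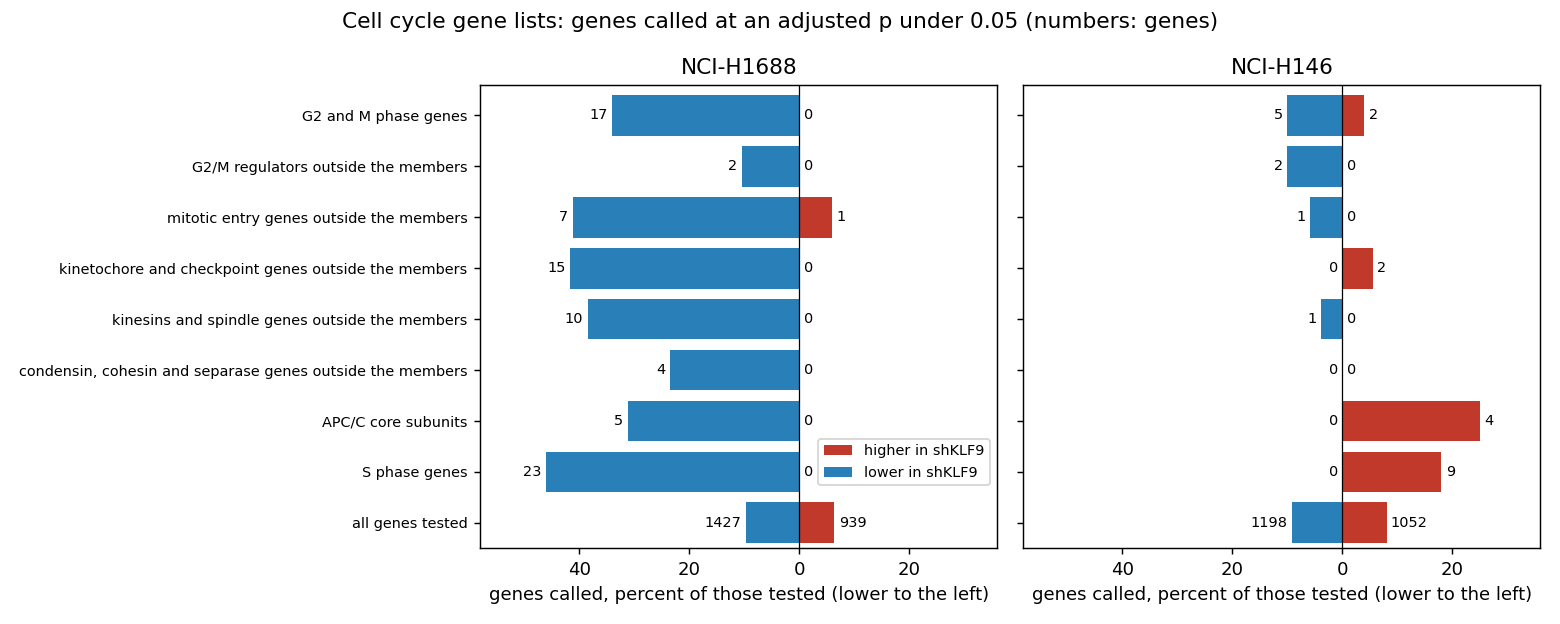
Percent of the genes tested that were called (x axis; lower in shKLF9 to the left, higher to the right) for the 50 genes, the 7 other cell cycle lists and all genes tested (y axis), with the number of genes at each bar. In NCI-H1688 the bars run to the left, with 23 of 50 S phase genes lower, and in NCI-H146 9 S phase genes were higher.

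The genes were also compared by the motifs in their promoters. The 27 genes with both motifs had a median log2 fold change of -0.28 in NCI-H1688 and -0.32 in NCI-H146. The 15 matched genes without both had -0.19 in NCI-H1688 and -0.46 in NCI-H146. In NCI-H1688, 9 of the 27 and 5 of the 15 were lower, against 12% of all 643 tested genes with both motifs and 11.0% of the 9292 without both, whose medians were -0.05 and -0.04. In NCI-H146, 2 of the 27 were lower and 1 higher, and 2 of the 15 were lower and 1 higher. There 10.3% of all 697 tested genes with both motifs were lower and 5.16% higher, with a median of -0.13, and 9.19% of the 9910 without both were lower and 8.03% higher, with a median of 0.01.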

How the data were processed

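Poly(A) RNA-seq of 8 libraries from 2 established lines was analysed from 2 tables. For NCI-H146 the authors deposited whole-number read counts per gene, and for NCI-H1688 they deposited TPM, a length-scaled abundance. TPM keep no depth, so the depth behind the NCI-H1688 values is unknown here. STAR 2.5.1, DESeq2 and the build GRCh38 (hg38) appear, per the submitters' processing notes, with no role stated. How reads were counted, on which annotation and strand, and how the TPM columns were scaled to each other are not given in the sources used here. All 50 members, the other gene lists and the choice of tests were made with earlier results of these data known.

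Rows sharing a gene name in NCI-H1688 were reduced to the one with the highest mean (1453 dropped, 56981 names kept), and 0 columns were left without a sample. Each line was fitted alone. In NCI-H1688, 14754 genes averaging 1 TPM or more entered limma 3.58.1 (eBayes, trend on) as log2(TPM + 1), a scale that understates changes of low genes. In NCI-H146, 13129 genes kept by filterByExpr were tested by quasi-likelihood in edgeR 4.0.16 (R 4.3.3) after TMM scaling, and CPM use TMM totals. DESeq2 1.42.0 and limma-voom were run as other tools. The SE in edgeR is the fold divided by the square root of F. P-values were adjusted by Benjamini-Hochberg over all genes of a line, with a threshold of 0.05, and no gene set test was run. Fits were tested on simulated data. Alternatives were another pseudocount, filter, scaling and tool, leaving out mitochondrially encoded genes, the replicate block and leaving out each library.

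Named genes are members called in either line, MKI67, TOP2A, CDK1, CCNB2, CDC20, AURKA, AURKB, BIRC5, CENPF and UBE2C, the genes beside the threshold, KLF9, and, outside the 50, up to 3 called genes of each list and FOXM1, MYBL2, PLK1, CCNB1, CCNA2 and CDKN1A. Not every gene of this rule is printed with all its values. Coordinates are those of GENCODE 29 on GRCh38, and promoter sequences and starts are RefSeq GRCh38.p14.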

Additional observations from a re-analysis of the deposited data

Results flagged for a closer look

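For 7 of the 50 genes (14%), both libraries labelled shKLF9 lay on one side of both controls in NCI-H1688 and on the other side in NCI-H146. Of all 10773 genes tested in both lines, 26.4% did so. The NCI-H1688 direction rests on labels that KLF9 itself goes against, and with that direction turned these 7 genes would lie on the same side in both lines. The difference between the lines was not tested, because the tables were normalized separately. AURKB had a log2 fold change of -0.57 in NCI-H1688 and 0.87 in NCI-H146, and TUBB4B had -0.66 and 1.13. CDC20 had -0.55 in NCI-H1688 and 0.83 in NCI-H146, and RANGAP1 had -0.52 and 0.68. BIRC5 had -0.35 in NCI-H1688 and 0.67 in NCI-H146, and TACC3 had -0.39 and 0.39. ANP32E, a histone chaperone, went the other way, with 0.11 in NCI-H1688 and -0.23 in NCI-H146.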

How the results depend on the processing

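In NCI-H1688, 2366 genes, 17 of the 50 and 67 genes of the other lists passed. These counts became 943, 9 and 23 with no filter on low values, and 834, 4 and 13 in limma without a trend. With the replicate block they were 1218, 9 and 33, and CDK1 and AURKB were among the genes lost (adjusted p in limma 0.0609 and 0.0688). Same-numbered libraries of that line did not deviate together (correlation over genes -0.005), so the numbers are not taken as pairing. In NCI-H146 no paired analysis was possible because its groups share a single replicate number. With 1 library left out, NCI-H1688 had 0 to 24 genes called, 0 of the 50 and 0 of the other lists, and the median of the 50 genes ran between -0.29 and -0.21. Without mitochondrially encoded genes that median was -0.21 and all genes moved to 0.04, with 14 of the 50 called and 7.67% of all genes higher against 7.52% lower. In NCI-H146, with 2250, 7 and 19 called, leaving out 1 library gave 51 to 5026 genes, 1 to 24 of the 50 and 0 to 71 of the other lists, and medians between -0.55 and -0.0928. DESeq2 and limma-voom called 8 and 7 of the 50, and 5 passed with no filter on low counts, without CDK1 and AURKB. Some values near 0 changed sign. CDCA8 in NCI-H146 was 0.0117 in DESeq2 and 0.0117 with its size factors, and AURKA there was -0.0038 in limma-voom. With 1 library left out, NCI-H1688 GAS2L3 ran between -0.35 and 0.11 and TOP2A between -0.0319 and 0.0602. In NCI-H146, AURKA ran between -0.27 and 0.27, CDKN1A between -1.13 and 0.23, CDCA8 between -0.12 and 0.15, UBE2C between -0.63 and 0.0719, TPX2 between -0.93 and 0.0661, CENPF between -0.54 and 0.13, CCNB2 between -0.72 and 0.0009, MYBL2 between -0.46 and 0.15 and GTSE1 between -0.0263 and 0.29. The cause of these changes was not tested. With 2 libraries a group, a lone library left in a group is assumed to vary like the other group.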
